A study of Mus musculus with 2 samples.

Results

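Mitosis is driven by a small set of kinases and by the regulated destruction of their partners, and 10 mouse genes of that machinery are described here: the kinase genes Cdk1, Plk1, Aurka and Aurkb, the cyclin gene Ccnb1, the spindle checkpoint genes Bub1, Bub1b and Mad2l1, the anaphase activator gene Cdc20 and the centromeric histone gene Cenpa. They were chosen by name, with earlier results of these data known, as the probe sets whose current or older gene symbol is 1 of these 10. On the array, 8 of the 10 were represented, by 12 probe sets, among 8251 genes in all. Bub1b and Ccnb1 had no probe set under their own symbol and have no values here.

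The levels come from 2 mouse mesoangioblast clones, D351 and D16. Mesoangioblasts are progenitors found along embryonic vessels that can form muscle, bone and other mesodermal cells. Both clones were derived from C57BL6 dorsal aorta at embryonic day 9.5, kept as an explant for 5 days, cloned at limiting dilution over embryonic fibroblasts that had been growth-arrested with Mitomycin C, in RPMI with 20% fetal calf serum, and expanded on gelatin. No further treatment, genotype or time point is labelled. Each clone is a single cell line measured once, as total RNA on 1 Affymetrix U74A array, so no difference below has a test, a standard error or a p-value, and the number of arrays limits the precision.

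In a dividing cell, Cdk1 bound to cyclin B starts mitosis, Plk1 and the Aurora kinases build the spindle and correct faulty attachments, and Bub1, BubR1 (the Bub1b product) and Mad2 hold the cell before anaphase until every chromosome is attached. Once the checkpoint is satisfied, Cdc20 switches on the anaphase-promoting complex, a ubiquitin ligase that marks securin and cyclin B for destruction, and the sister chromatids part. Cenpa replaces histone H3 at centromeres and is the base on which kinetochores assemble. Most of these transcripts rise in G2 and fall again after division, and they are commonly read as markers of proliferation.

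All 8 measured genes had lower levels in D351 than in D16, and 6 of the 8 were at least 2-fold lower, the size used here to count a difference. None was higher in D351. Of the 6104 genes that reached the intensity floor in at least 1 clone, 8.81% had a D351 level at least 2-fold lower and 10.5% one at least 2-fold higher. The floor, a scaled intensity of 17.4, is the 40th percentile of the values, below which an intensity was not read as a level. The median log2 ratio of D351 over D16 was -1.63 over the 8 genes, a 3.09-fold lower level in D351, against -0.03 over all genes. In RNA from whole cultures, fewer cells in mitosis and less of these RNAs per cell cannot be told apart.

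Among the kinases, Cdk1, the catalytic partner of cyclin B, had a scaled intensity of 289.9 in D351 and 595 in D16. That is a 2.05-fold lower level in D351 (log2 ratio -1.04), just past the 2-fold size. Plk1, which acts at centrosomes, kinetochores and the cleavage site, was read by 3 probe sets. Its brightest probe set measured 105 in D351 and 291 in D16, a log2 ratio of -1.47. The others measured 69.6 in D351 and 205 in D16 (log2 ratio -1.55), and 48.9 in D351 and 188 in D16 (log2 ratio -1.94). All 3 thus lay between 2.77-fold and 3.84-fold lower in D351, but each is of a kind (suffix g or f) that can match related transcripts, and Plk1 has no other probe set here.

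The 2 Aurora kinases, relatives with separate posts in the spindle, both had lower levels in D351. Aurka, which matures centrosomes and spindle poles, measured 59.7 in D351 and 206 in D16, a 3.44-fold lower level in D351 (log2 ratio -1.78). Aurkb, the kinase of the chromosomal passenger complex at centromeres and the midzone, measured 67.1 in D351 and 131 in D16. Its log2 ratio of -0.96, a 1.95-fold lower level in D351, lay just inside 2-fold. The log2 ratios of Aurka and Aurkb were 0.82 apart, which is within the spread between probe sets given below.

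Of the spindle checkpoint genes, Bub1, a kinase that recruits the checkpoint to kinetochores, measured 38.7 in D351 and 137 in D16 by its brightest probe set. This was 3.55-fold lower in D351 (log2 ratio -1.83), with a D351 level 2.22 times the floor. The other Bub1 probe sets did not reach the floor in either clone, at 9.57 and 9.87 in D351 and at 4.22 and 7.57 in D16, and give no ratio. Mad2l1 encodes Mad2, the protein that holds Cdc20 inactive while the checkpoint is on. It measured 206 in D351 and 369 in D16, a log2 ratio of -0.84, and was the member with the smallest difference, 1.79-fold.

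Cdc20 had the widest gap. Its probe set measured 224 in D351 and 1567 in D16, a 6.99-fold lower level in D351 (log2 ratio -2.80). Both levels were far above the floor, 12.9 times in D351 and 90.0 times in D16. Cenpa measured 37.0 in D351 and 177 in D16, a 4.78-fold lower level in D351 (log2 ratio -2.26), with the D351 level 2.13 times the floor. The targets of these probe sets differ in length and sequence, so an intensity of 1 gene is not set against that of another, only their ratios between clones.

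**Figure D1:**
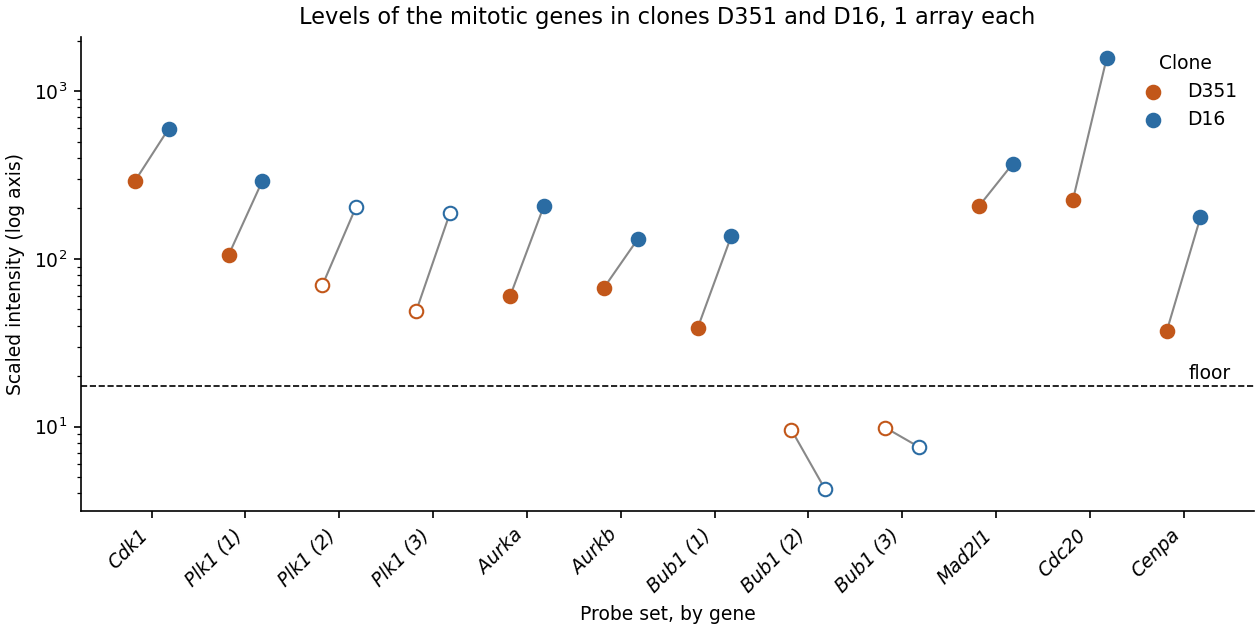
Scaled intensity (log axis) of every probe set of the 8 measured genes, 1 array per clone, D351 left of D16. Filled points mark the probe set that stands for the gene, open points its other probe sets, and the dashed line the floor of 17.4. Every probe set above the floor is lower in D351, and 2 of the 3 Bub1 probe sets lie below the floor in both clones.

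The spread that can be measured without replicate arrays is that between probe sets of the same gene, with an SD of 0.52 in log2 ratio (808 genes). It leaves out the spread between cultures. In units of this SD the members' log2 ratios ran from -1.63 for Mad2l1 to -5.44 for Cdc20. Set against each other, 25 of the 28 pairs of members had log2 ratios closer than 1.46, which is 2 SDs of a difference between 2 probe sets. The 3 pairs farther apart all held Cdc20, with Cdk1, Aurkb or Mad2l1 as the other gene. Cdc20 was closer than 1.46 to Cenpa, Bub1, Aurka and Plk1. Neither its place as the largest difference nor the order of the remaining genes therefore goes beyond the spread between probe sets.

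Over the 5203 genes measured in both clones, ordered from the lowest ratio upwards, Cdc20 stood at rank 14, Cenpa at 30, Bub1 at 66, Aurka at 77 and Plk1 at 163. Cdk1 stood at rank 409, Aurkb at 470 and Mad2l1 at 620. Thus 11.9% of all genes had a lower ratio than Mad2l1, and 0.25% a lower one than Cdc20. At 3-fold or more, 4 members (Cdc20, Cenpa, Bub1 and Aurka) were lower in D351, where 2.59% of all genes were. At 4-fold or more, 2 members (Cdc20 and Cenpa) were, against 1.26% of all genes.

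**Figure D2:**
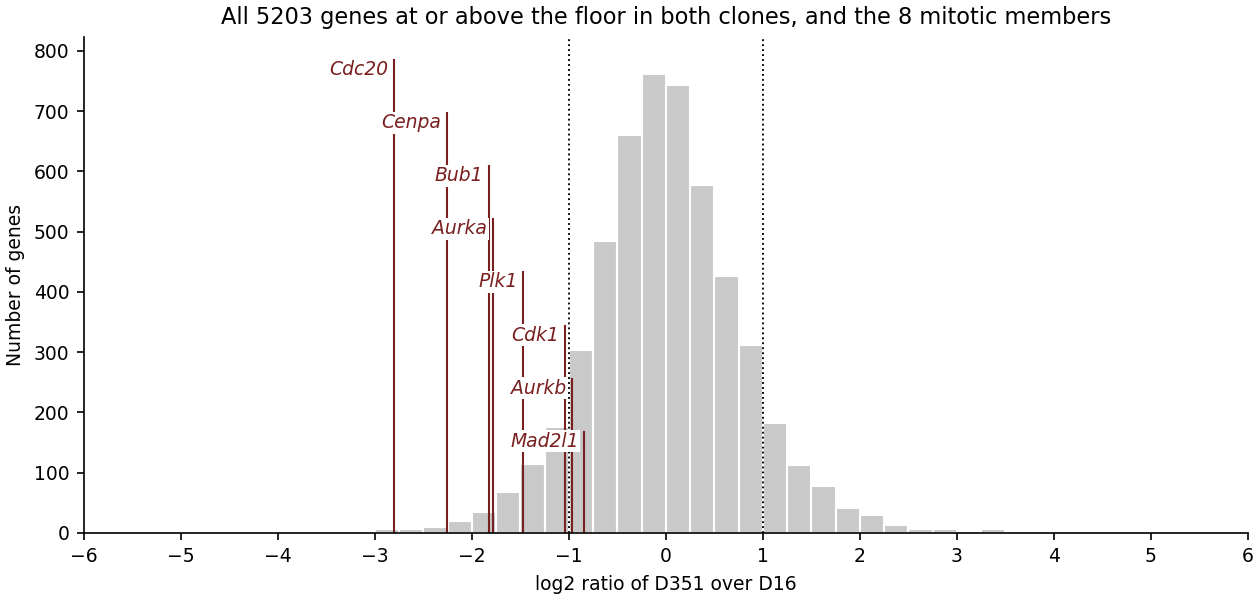
Histogram of the log2 ratio of D351 over D16 for the 5203 genes that reached the floor in both clones, in bins of equal width. Vertical lines, whose height carries no value, mark the 8 members, from Cdc20 at -2.80 to Mad2l1 at -0.84, and dotted lines mark 2-fold in each direction. All members lie left of the centre of the distribution.

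Genes of the G2 and M phases are commonly controlled by a pair of promoter elements, the CCAAT box, bound by the factor NF-Y, and the cell cycle genes homology region (CHR), bound by MuvB complexes with B-Myb and Foxm1 or, in resting cells, with E2F4 and a p130 or p107 protein. The RefSeq promoters of the members (mouse build GRCm38.p6, 250 bases before to 50 after the annotated start) were searched on both strands. The members are genes of this class, chosen by name. The part of these elements in the difference between the clones was not tested. The letters searched were TTTGAA or TTCGAA for the CHR, CCAAT for the CCAAT box and TTTNGCGC or TTTCCCGC for an E2F site, where N is any base. None of these overlapped another in the windows below. Promoters were available for 9 of the 10 members, all but Aurkb. These 9 include Ccnb1 and Bub1b, which have no level here, so they are not the same genes as the 8 measured. A CHR match was present in 7 of the 9 (77.8%), against 19.2% of all 32851 promoters of this length, and a CCAAT box in 8 of the 9 (88.9%), against 37.4%. CHR and CCAAT matches stood together in 7 of the 9, against 7.52% of all promoters and 5.79% of the promoters of genes at or above the floor here. At least 2 CCAAT boxes were found in 6 of the 9, against 11.7%, and an E2F match in 1, Cdk1, against 2.39%. A match describes the letters in the window and was not tested as a binding site.

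The promoters of the member with the largest difference (Cdc20, chr4:118437294-118437593, minus strand), of Cenpa (chr5:30666636-30666935, plus strand), of the kinases Aurka (chr2:172370521-172370820, minus strand) and Cdk1 (chr10:69352863-69353162, minus strand), and of the member with the smallest difference (Mad2l1, chr6:66534971-66535270, plus strand) are shown 5′ to 3′ on the strand of the gene, with matches to these motifs in capitals, ATTGG being CCAAT on the other strand.
Cdc20: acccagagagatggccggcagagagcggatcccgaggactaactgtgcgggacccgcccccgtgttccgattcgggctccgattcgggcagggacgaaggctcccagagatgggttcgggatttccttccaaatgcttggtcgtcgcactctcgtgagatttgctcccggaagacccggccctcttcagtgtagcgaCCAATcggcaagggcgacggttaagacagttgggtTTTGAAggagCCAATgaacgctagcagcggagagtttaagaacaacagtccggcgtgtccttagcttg
Cenpa: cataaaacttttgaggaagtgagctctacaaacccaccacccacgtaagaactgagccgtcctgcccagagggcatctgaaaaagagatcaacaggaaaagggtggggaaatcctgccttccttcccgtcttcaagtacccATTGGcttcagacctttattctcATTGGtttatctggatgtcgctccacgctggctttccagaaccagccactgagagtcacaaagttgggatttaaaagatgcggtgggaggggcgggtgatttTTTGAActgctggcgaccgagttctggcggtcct
Aurka: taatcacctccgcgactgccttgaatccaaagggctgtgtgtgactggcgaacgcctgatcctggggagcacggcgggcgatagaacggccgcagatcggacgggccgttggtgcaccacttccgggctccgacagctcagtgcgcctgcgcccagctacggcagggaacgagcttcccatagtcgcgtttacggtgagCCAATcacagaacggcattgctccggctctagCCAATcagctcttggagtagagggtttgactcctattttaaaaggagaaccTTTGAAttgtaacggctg
Cdk1: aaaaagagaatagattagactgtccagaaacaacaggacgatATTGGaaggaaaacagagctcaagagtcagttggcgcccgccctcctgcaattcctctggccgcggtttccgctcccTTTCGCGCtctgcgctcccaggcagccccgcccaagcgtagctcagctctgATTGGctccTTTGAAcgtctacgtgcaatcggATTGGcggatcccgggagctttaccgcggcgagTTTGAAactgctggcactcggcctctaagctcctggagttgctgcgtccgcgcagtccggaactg
Mad2l1: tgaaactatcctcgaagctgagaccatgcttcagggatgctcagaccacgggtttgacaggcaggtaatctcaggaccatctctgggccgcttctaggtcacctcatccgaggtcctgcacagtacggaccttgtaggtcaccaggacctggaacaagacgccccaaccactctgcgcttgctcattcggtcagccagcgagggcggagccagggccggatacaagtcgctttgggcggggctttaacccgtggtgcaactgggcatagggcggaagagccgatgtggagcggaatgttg

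In the Cdc20 promoter the CHR began at -18, with a CCAAT box 35 bases before it and a second one after it, at -8. The Cdk1 window held 2 CHR matches, at -71 and -15, 3 CCAAT boxes and the E2F match at -131. A CCAAT box preceded the last CHR in all 7 promoters that held both, at distances of 33 bases in Cdk1, 44 in Plk1, 51 in Aurka, 56 in Bub1, 102 in Cenpa and 153 in Bub1b besides the 35 in Cdc20. In Plk1, Aurka, Bub1, Bub1b and Cenpa that CHR lay after the start, so nearly the whole window came before it. The other Bub1b CHR, at -188, had no CCAAT box before it in the window. No share over all promoters was computed for this order. In Aurka, Ccnb1 and Cdk1, a pair of CCAAT boxes lay 32 bases apart from first base to first base. The Ccnb1 window held CCAAT boxes but neither CHR spelling, and the Mad2l1 window held none of the 3 motifs. Of the promoters of other genes at least 2-fold lower in D351, 17.7% held a CHR and 42.9% a CCAAT box, against 13.8% and 37.4% of the promoters of all genes at or above the floor here.

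**Figure D3:**
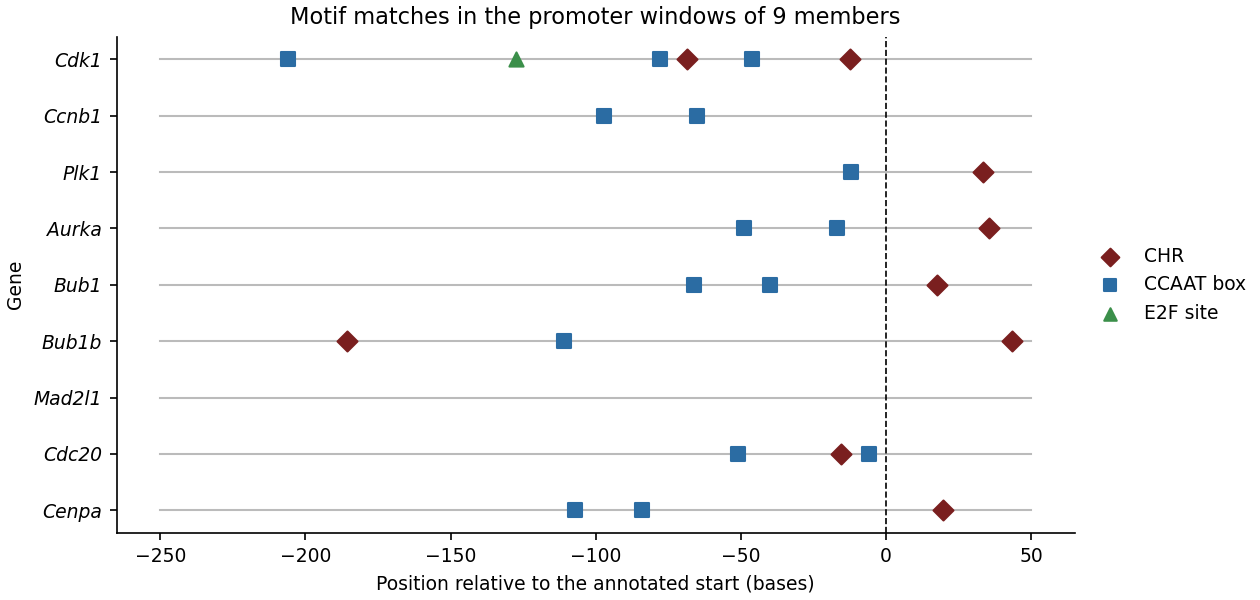
Positions of CHR, CCAAT box and E2F matches in the promoter windows of 9 members, in bases from the annotated start (dashed line), on either strand. The last CHR lies to the right of a CCAAT box in the 7 promoters that hold both, and the Mad2l1 window is empty.

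Other genes of mitosis were grouped by role, to show where the members stood among their partners. The chromosomal passenger and spindle assembly genes were low in D351 as well: 12 of 21 measured were at least 2-fold lower there, none passed 2-fold the other way, and the median log2 ratio was -1.39. The partners of Aurkb in the passenger complex, of which Incenp and Birc5 were named after their values were seen, had larger differences than the 1.95-fold of the kinase. Cdca8 (borealin) measured 71.6 in D351 and 295 in D16, a log2 ratio of -2.04. Incenp, the scaffold that activates Aurkb, measured 66.6 in D351 and 176 in D16 (log2 ratio -1.40), and Birc5 (survivin) 95.7 in D351 and 259 in D16 (log2 ratio -1.44). These gaps to Aurkb are within the 1.46 that 2 probe sets allow. Racgap1, Ect2 and Anln, which position and drive the cleavage furrow, had log2 ratios of -2.16, -1.96 and -1.79.

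Of the mitotic entry regulators, 7 of 15 were at least 2-fold lower in D351 and none passed 2-fold the other way, with a median of -0.99. Ccnf, a cyclin-like subunit of a ubiquitin ligase, measured 69.2 in D351 and 231 in D16 (log2 ratio -1.74). Foxm1, the forkhead factor that works through CHR promoters, measured 125 in D351 and 371 in D16 (log2 ratio -1.56), and its second probe set was at least 4.41-fold lower in D351, where it was below the floor. Cks2, a small subunit that binds Cdk1, had a log2 ratio of -1.38, and Cdc25c, the phosphatase that activates Cdk1, one of -1.28, with -2.97 by another probe set. In the absence of a value for Ccnb1, the other mitotic cyclins, named after their values were seen, were Ccnb2, at 382 in D351 and 619.8 in D16 (log2 ratio -0.70), and Ccna2, at 158 in D351 and 313 in D16 (log2 ratio -0.99).

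Smaller ratios were measured for the remaining spindle checkpoint genes. Only Ttk, the kinase that starts checkpoint signalling, was at least 2-fold lower in D351 of 8 measured, at 31.9 in D351 and 109 in D16 (log2 ratio -1.78), none passed 2-fold the other way, and the median was -0.47. Bub3, which carries Bub1 to kinetochores and was named after its values were seen, measured 374 in D351 and 617 in D16 (log2 ratio -0.72).

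The complex that Cdc20 activates had no gene past 2-fold in the direction of Cdc20. Of 13 measured genes of the anaphase-promoting complex and its ubiquitin-conjugating enzymes, none had a level 2-fold or more lower in D351 and 2 passed 2-fold in the other direction, the subunit genes Anapc16, at 189 in D351 and 70.2 in D16 (log2 ratio 1.43), and Cdc23, at 158 in D351 and 63.9 in D16 (log2 ratio 1.30). The second Cdc23 probe set did not reach the floor in either clone. The 13 log2 ratios ran from -0.96 to 1.43 with a median of 0.06. Of all genes, 8.81% were at least 2-fold lower in D351 and 10.5% at least 2-fold higher. With 13 genes, the counts do not set the complex apart from all genes. Among the genes of cohesion and chromatid separation, which the complex acts on through securin, 2 of 9 were at least 2-fold lower in D351. They were Sgo1, the centromeric protector of cohesin, at 22.0 in D351, near the floor, and 54.2 in D16, and Cdca5 (sororin), at 30.3 in D351 and 61.3 in D16. The second Sgo1 probe set reached the floor in neither clone. By its second probe set Cdca5 was 1.79-fold lower in D351, within 2-fold. Pds5b, a cohesin regulator, measured 48.9 in D351 and 19.7 in D16, which is near the floor, a 2.49-fold higher level in D351. Securin itself (Pttg1, named after its values were seen) measured 302 in D351 and 506 in D16, a log2 ratio of -0.75.

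Few genes of the structures built on Cenpa could be measured. Only 5 of the 11 centromere and kinetochore genes on the array reached the floor, of which Pmf1, at 24.9 in D351 and 70.5 in D16, was at least 2-fold lower in D351 and none passed 2-fold the other way. The centromere-binding proteins Cenpb and Cenpc1, named after their values were seen, measured 89.4 and 53.2 in D351 against 64.1 and 41.8 in D16, log2 ratios of 0.48 and 0.35. The chromosome condensation genes had a median near that of the members, -1.44, with 6 of 8 at least 2-fold lower in D351 and none past 2-fold the other way. The condensin genes Ncaph and Smc2 had log2 ratios of -2.51 and -2.03. The D351 level of Ncaph, 17.6, was just above the floor, and its second probe set was at least 1.54-fold lower in D351. Top2a, the topoisomerase of dividing cells, had a log2 ratio of -1.52, while its relative Top2b, named after its values were seen, measured 124 in D351 and 121 in D16. Mki67 had a log2 ratio of -2.73 by its brightest probe set and 0.29 by the other, near the floor.

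Relatives of the members that act outside mitosis had log2 ratios from -0.72 to 1.65, with a median of 0.07. Fzr1 and Aurkc, the listed relatives of Cdc20 and of the Aurora kinases, had no value. Of 18 kinase and cyclin relatives, 7 had the lower level in D351, none of them by 2-fold or more, where 8.81% of all genes were. In the other direction 4 passed 2-fold, where 10.5% of all genes did. The 4 were Ccnd2, a G1 cyclin, with a log2 ratio of 1.65, Ccng2 (1.58), Ccng1 (1.35) and Cdk5 (1.21). Named after their values were seen, Cdk2, the S phase kinase, measured 103 in D351 and 102 in D16, Cdk4, the G1 kinase, 1112 in D351 and 1063 in D16, and Plk2, a stress and growth factor responsive relative of Plk1, 1043 in D351 and 984 in D16. Among the mitotic phosphatase genes, 1 of 15, Ppp2r5d (log2 ratio -1.47), was at least 2-fold lower and none passed 2-fold the other way, with a median of -0.04. Of 12 regulators of mitotic gene transcription, 1 was at least 2-fold lower in D351, the NF-Y subunit gene Nfyc, at 130.2 in D351 and 294 in D16, and by its second probe set at least 3.13-fold lower. In the other direction, Rbl2, which encodes the p130 pocket protein of resting cells, was 2.63-fold higher in D351, at 53.0 in D351 and 20.1 in D16, near the floor. The median of these 12 was -0.02. Named after their values were seen, Nfya and Nfyb, the other NF-Y subunit genes, had log2 ratios of 0.05 and 0.59. Those of Lin9 and of Rbl1, the p107 gene, were 0.53 and -0.87. Mybl2, the B-Myb gene, grouped with the entry regulators, measured 29.4 in D351 and 31.4 in D16 by the brighter of its 2 probe sets (log2 ratio -0.10).

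The DNA replication genes peak earlier in the cycle, and the mitotic kinesins move chromosomes and spindle poles. Of 35 replication genes, 20 (57.1%) were at least 2-fold lower in D351 and none passed 2-fold the other way, with a median log2 ratio of -1.06. Orc1, an origin recognition subunit, was below the floor in D351 and at 87.1 in D16, at least 5.01-fold lower in D351. The licensing factor genes Cdc6 and Mcm3 and the licensing inhibitor gene Gmnn had log2 ratios of -1.72, -1.53 and -1.61. Of 7 kinesins, 3 were at least 2-fold lower, Kif2c (log2 ratio -2.33), Kif22 (-2.07) and Kif11 (-1.50), and none passed 2-fold the other way. The members' share of 75% and median of -1.63 were not tested against these groups, since each clone has 1 array.

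**Figure D4:**
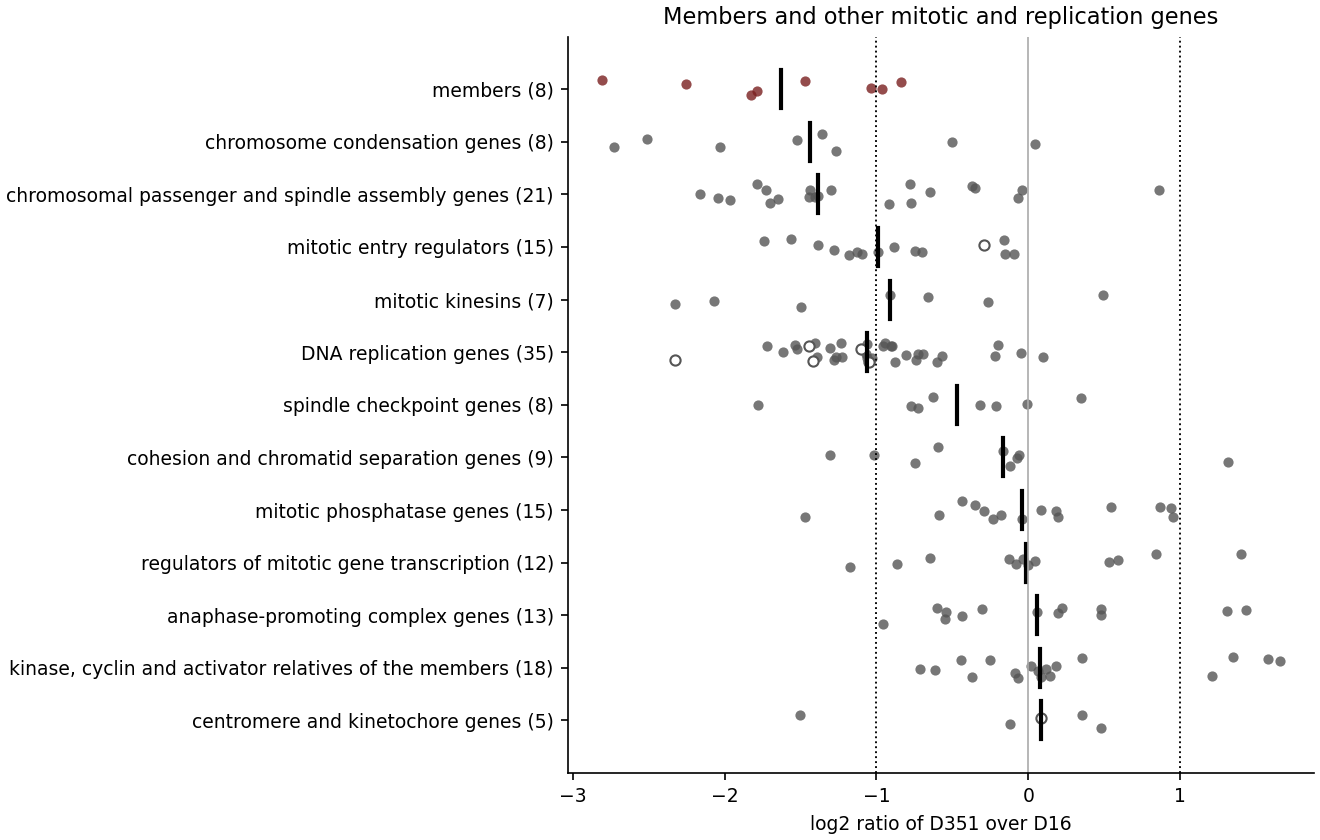
Log2 ratio of D351 over D16 for the 8 members (top) and for 12 groups of other mitotic and replication genes, 1 point per gene, with the number of measured genes in brackets. Thick bars are medians, open points are lower bounds on the size of a ratio because 1 clone was below the floor, and dotted lines mark 2-fold. The anaphase-promoting complex genes and the relatives of the members centre near 0, while the members centre at -1.63.

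By ratio alone, the genes most like the members were Bnip1, Nr4a1, Emb, Ssr1 and Cmpk1, the 5 non-members nearest to the members' median log2 ratio among 2376 genes of similar mean level. Their log2 ratios lay between -1.61 and -1.59. With 2 arrays this likeness rests on a single ratio per gene, and another Ssr1 probe set had a log2 ratio of 0.74.

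Other properties of the arrays moved with the clones. The 3' to 5' ratio of the control probe sets of Actb, a measure of RNA integrity, was 1.37 in D351 and 1.81 in D16, and that of Gapdh 1.44 in D351 and 1.56 in D16. Over the 9 probe sets of the hybridization controls, the log2 ratio had a median of -0.39. Scaling the arrays on them moved the median of all genes to 0.34 and that of the members to -1.23, with all 8 still lower in D351 and 5 at least 2-fold lower, Cdk1 being within 2-fold at -0.64. Under that scaling 17.1% of all genes past 2-fold were lower in D351, against 45.6% before.

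Markers of cell types that the cultures could hold were read on the same arrays. Of the feeder fibroblast markers, 11 of 12 reached the floor, 5 passed 2-fold with the higher level in D351 and 1, S100a4, with the lower level there, with a summed level of 13144 in D351 and 9327 in D16. The log2 ratios were 2.01 for Lum, 1.56 for Postn, 1.35 for Col3a1, 1.29 for Col1a1 (0.42 by its other probe set) and -2.15 for S100a4. Mesenchymal clones express such genes too, so feeder RNA and RNA of the clones cannot be told apart by them. Of the smooth muscle markers, 6 of 8 passed 2-fold with the higher level in D351, with a summed level of 5518 in D351 and 1826 in D16. Actg2, Mylk and Tagln had log2 ratios of 3.44, 2.34 and 1.55, and Cnn1 was at least 9.04-fold higher in D351. The endothelial markers Cdh5, Tek, Tie1, Kdr, Vwf and Emcn and the blood cell marker Ptprc did not reach the floor in either clone. The endothelial marker Flt1 was at 66.2 in D351 and below the floor in D16, at least 3.80-fold higher in D351. It was the only 1 of 3 measured endothelial markers past 2-fold, and their median log2 ratio was -0.07. The macrophage marker Cd68 was at 36.9 in D351 and below the floor in D16, at least 2.12-fold higher in D351. Its second probe set reached the floor in neither clone. Of the 5 blood cell markers measured, 3 had the lower level in D351, and the median log2 ratio was -0.27. The endothelial list summed to 224 in D351 and 204 in D16, and the blood cell list to 214 in D351 and 165 in D16, values under the floor included. Of the markers used for mesoangioblasts, Kdr and Kit reached it in neither, and Cd34 was under it in D351 and at 475 in D16. In the other direction, Pdgfrb measured 197 in D351 and 54.3 in D16 (log2 ratio 1.86) and Nes 100.3 in D351 and 28.6 in D16 (log2 ratio 1.81), and the median of the 6 measured markers was 0.62. The part of RNA integrity, array scaling or cell makeup in the members' difference was not tested.

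**Figure D5:**
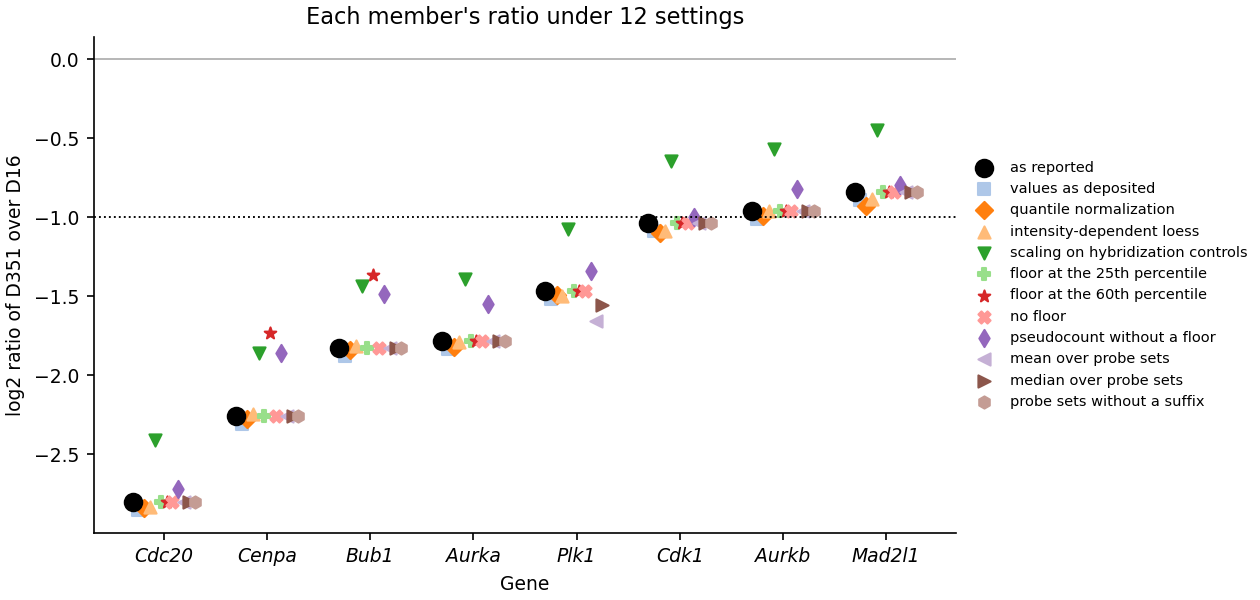
Log2 ratio of D351 over D16 of each of the 8 members under 12 settings of scaling, floor and probe set rule, with the dotted line at 2-fold lower. Every value lies below 0, and scaling on the hybridization controls brings Cdk1, Aurkb and Mad2l1 nearest to it.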

How the data were processed

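The linear intensity of each probe set was used as the authors deposited it. How the authors scaled the arrays, and with which software, was not given in the sources used here. The 2% trimmed mean was 100.1 in both arrays. Of 12488 probe sets per array, 66 controls were left out. Probe sets were named through the platform annotation and updated by Entrez number to RefSeq (GRCm38.p6): 10833 had 1 symbol, 396 several and 1193 none. The labels' array name carries no version, and the annotation's version was not checked against it. Arrays were scaled to a common median log2 level (factors 1.02 for D351 and 0.983 for D16), and values under the floor were raised to it before log2 ratios were computed. A gene below it in 1 clone has a bound, written as at least N-fold. The brightest probe set by mean level stood for a gene. Incenp, Bub3, Pttg1, Cdk2 and Cdk4 have 2 probe sets each, of which only the brightest is given above. At or above the floor were 59.4% of non-control probe sets in D351 and 60.6% in D16.

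The members and gene lists were chosen with earlier results of these data known. Named were all members, up to 4 genes per list and direction past 2-fold, and the 5 nearest genes by ratio. Protein sequences were not used here. Without replicates there was no test. The functions were checked on a simulated pair of arrays, made from the D16 values with planted differences and no noise. That check covers the computation and not the spread between real arrays. Alternatives changed the scaling, the floor, the pseudocount, the probe set rule and the size threshold. Python 3.11.15, numpy 2.4.6, pandas 2.3.3, scipy 1.17.1, statsmodels 0.14.6 and matplotlib 3.10.9 were used.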

Additional observations from a re-analysis of the deposited data

How the results depend on the processing

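No paired analysis was possible because there is a single array for each clone, which also leaves no replicate to omit. All 8 members stayed lower in D351 in every setting in which they were measured. Their median log2 ratio stayed between -1.78 and -1.23, with each member left out in turn included. The count at least 2-fold lower stayed between 5 and 7 under scaling, floor and probe set settings and was 8 at 1.5-fold, 4 at 3-fold and 2 at 4-fold. Of 87 values of single members under alternatives, 86 moved by less than the probe set SD, and Cenpa reached -1.73 as a bound with the floor at the 60th percentile. Many of these values could not move. The 25th percentile floor, no floor and leaving out suffixed probe sets changed no measured member, and probe set means and medians changed only Plk1. Deposited values and hybridization control scaling shifted all members by a constant smaller than the SD. The count is therefore no measure of robustness. Plk1 has no value once suffixed probe sets are left out, and probe set means and medians were taken over log2 ratios of probe sets that reached the floor in at least 1 clone. All genes lower and higher in D351 numbered 538 and 642 at 2-fold, 1279 and 1285 at 1.5-fold, 158 and 251 at 3-fold, 77 and 138 at 4-fold, 249 and 1208 with hybridization control scaling, 325 and 404 with the floor at the 60th percentile, and 1240 and 1144 with no floor. With the floor at the 25th percentile 850 were lower. Of the list medians, 182 of 187 moved by less than the probe set SD. The exceptions were the blood cell markers (0.48 with hybridization control scaling and 0.89 with the 60th percentile floor), the smooth muscle markers (2.42 with the 25th percentile floor and 2.61 with none) and the mitotic kinesins (-1.50 without suffixed probe sets); the cause was not tested. Scaling on the hybridization controls also turned the medians of the endothelial (0.33), cohesion (0.22), phosphatase (0.35) and transcription regulator (0.37) lists above 0. Levels within a few times the floor, such as those of Cenpa and Bub1 in D351, limit how well the size of a ratio is known.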
